A study of Mus musculus with 21 samples.

Results

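Atoh1, Spdef, Gfi1, Foxa1, Foxa2, Foxa3 and Creb3l4 encode transcription factors of the secretory cells of the intestinal epithelium, and they were followed here across every group of the study. The 7 genes were chosen by symbol, from 18194 genes with a symbol of their own on the array. Each had exactly 1 probe set, and all 7 stood above the median signal of the array on all 20 arrays of sorted cells. The study measured mouse small intestine on Affymetrix arrays, with 20 samples of sorted TdTomato-positive cells and 1 of whole intestine. The labels call the sorted cells Mist1-positive, TdTomato is a red fluorescent reporter protein, and sorting split the cells into CD24hi and CD24lo by a surface protein. Both fractions were collected in 5 conditions, giving 10 groups of 2 arrays. The conditions were Lgr5-ablated mice (titled DT), mice irradiated with 10 Gy, doxorubicin-treated mice, mice expressing NICD, and untreated mice. All sorted groups shared the reporter. NICD is the usual name of the intracellular, active domain of a Notch receptor. Lgr5 marks crypt base stem cells, and doxorubicin is a drug that damages DNA.

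The labels used here do not name the driver of the reporter or of NICD, the drug dose, the time after treatment, the strain, or the age of the mice. They also do not say whether cells of several mice were pooled or whether the 2 arrays of a group came from separate mice, so p-values measure only the spread between these samples. No group labelled as given DT without ablation was among the arrays. In arrays of sorted cells, fewer cells of a type and less RNA per cell cannot be told apart, and this holds for every result below. Bhlha15, the gene of Mist1, was higher in CD24hi than in CD24lo untreated cells, with mean levels of 11.27 and 9.17 on the log2(signal + 16) scale. Lgr5 differed after ablation by -1.30 in CD24hi and by -1.42 in CD24lo cells, short of the threshold in both (adjusted p = 0.455 and 0.585). Sorted arrays had median signals of 101 to 158, and precision is limited by having 2 arrays a group. The cre spike-in control of CD24hi NICD replicate 2 read 75343, where the remaining 19 sorted arrays read 22819 to 48833. The ratio of 3' to 5' actin signal, a sign of RNA quality, was 1.03 on that array against 1.30 to 1.58. A lower ratio is no sign of poorer RNA, and the array is set apart only because it differed. Results of CD24hi NICD are therefore given with and without it.

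Intestinal progenitors choose between absorptive and secretory fates through Notch signalling. A cell with active Notch, through the DNA-binding protein RBPJ, makes HES1, which represses Atoh1, while a cell that escapes Notch keeps ATOH1 and becomes secretory. ATOH1 stands at the top of the secretory programme. GFI1 acts below it and favours goblet and Paneth fates over the enteroendocrine fate, SPDEF drives maturation of goblet and Paneth cells, and the forkhead factors FOXA1, FOXA2 and FOXA3 open chromatin, with FOXA1 and FOXA2 needed for goblet and enteroendocrine cells. CREB3L4 is a membrane-anchored factor of the endoplasmic reticulum, related to proteins that raise secretory capacity.

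Atoh1, Spdef, Foxa1 and Creb3l4 carried most of the differences described below, and their promoters are shown because these genes differed together or against each other between conditions. The sequences are from RefSeq on build GRCm38.p6 and run from 250 bases before to 50 bases after the first listed transcription start. Atoh1 lies on chromosome 6 and its window is chr6:64728875-64729174 on the plus strand. The other 3 are on the minus strand, at chr17:27728902-27729201 for Spdef, chr12:57546062-57546361 for Foxa1 and chr3:90243463-90243762 for Creb3l4. Capitals mark matches, on either strand, to any of 5 short motifs that factors of this pathway are known to read.
Atoh1: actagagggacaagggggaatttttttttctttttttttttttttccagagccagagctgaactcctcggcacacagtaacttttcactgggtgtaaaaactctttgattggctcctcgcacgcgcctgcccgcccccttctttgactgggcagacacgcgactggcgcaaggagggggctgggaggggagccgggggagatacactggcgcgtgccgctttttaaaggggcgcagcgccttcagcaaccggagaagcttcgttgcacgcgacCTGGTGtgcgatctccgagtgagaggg
Spdef: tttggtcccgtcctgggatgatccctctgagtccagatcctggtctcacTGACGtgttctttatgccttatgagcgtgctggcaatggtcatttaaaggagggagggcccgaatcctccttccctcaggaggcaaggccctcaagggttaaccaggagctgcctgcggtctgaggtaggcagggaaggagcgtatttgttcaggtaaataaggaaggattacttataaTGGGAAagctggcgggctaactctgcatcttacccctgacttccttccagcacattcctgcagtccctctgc
Foxa1: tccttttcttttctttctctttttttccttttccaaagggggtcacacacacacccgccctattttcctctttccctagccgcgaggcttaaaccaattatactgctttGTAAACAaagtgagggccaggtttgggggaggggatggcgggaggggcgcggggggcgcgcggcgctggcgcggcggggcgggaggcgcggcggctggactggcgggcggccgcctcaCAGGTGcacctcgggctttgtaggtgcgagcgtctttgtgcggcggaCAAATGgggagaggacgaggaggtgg
Creb3l4: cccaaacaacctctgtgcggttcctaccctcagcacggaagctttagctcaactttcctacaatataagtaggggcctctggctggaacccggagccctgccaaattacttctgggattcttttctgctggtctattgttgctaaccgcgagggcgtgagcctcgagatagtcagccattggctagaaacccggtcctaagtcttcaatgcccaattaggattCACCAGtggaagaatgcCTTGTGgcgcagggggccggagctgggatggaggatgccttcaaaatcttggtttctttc

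The motifs were the E box CANNTG, read by ATOH1 and other helix-loop-helix proteins; the N box CACNAG, read by HES proteins; the RBPJ core TGGGAA; the forkhead core TGTTTNC; and the CRE core TGACG. The 4 printed windows held no overlapping matches. In Atoh1 the match was an N box at position +24 from the start. In Spdef the matches were an RBPJ core at -22 and a CRE core at -201. Foxa1 held a forkhead core at -141 and E boxes at -23 and +25, and Creb3l4 held N boxes at -27 and -10. All 7 genes had a RefSeq promoter, 12 sequences in all counting alternative starts, and of these 6 held an E box, 5 an N box, 4 a CRE core, 2 a forkhead core and 1 an RBPJ core. Among 32851 mouse promoters of this length 72.3% held the E box, 42.5% the N box, 25.6% the RBPJ core, 20.8% the CRE core and 20.5% the forkhead core. These are letter matches in a short window and nothing about binding was measured.

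All 7 genes had a higher signal in every sorted array than in whole intestine. Atoh1 ranged from 3119 to 12363 in the sorted arrays and read 967 in whole intestine. Foxa3 ranged from 3369 to 6243 against 511, and Spdef from 1828 to 4567 against 440.3. Creb3l4 ran from 1055 to 4618 in sorted cells against 269, and Foxa1 from 635 to 3280.5 against 282. Foxa2 ran from 439 to 1394 against 103. Gfi1 ran from 323 to 1191 against 56.2, and this whole intestine value lay under that array's median of 62.7. The median sorted array stood 6.94 times (Spdef) to 11.9 times (Gfi1) above whole intestine. The same ratio over all 11854 genes tested had a median of 1.42, and 39.4% of these genes had every sorted array above whole intestine. Whole intestine was 1 array labelled villi, so this is a description with no test. Signals of different genes come from different probe sets, and their heights are not compared with each other.

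**Figure D1:**
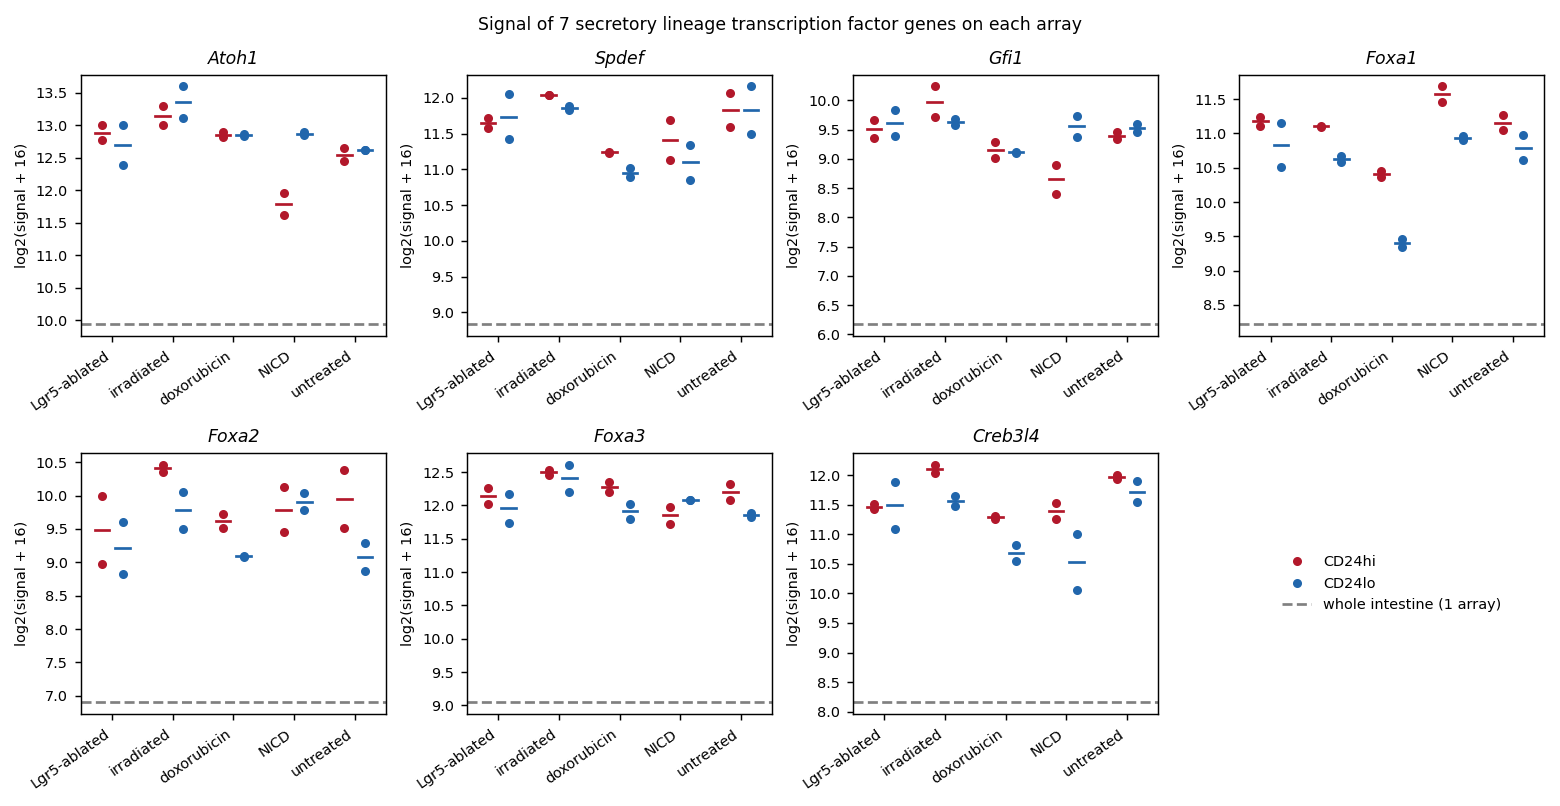
Signal of the 7 genes on each array as log2(signal + 16), by condition, with CD24hi in red and CD24lo in blue; points are single arrays, bars the group means, and the dashed line the 1 whole intestine array. All 20 sorted arrays lie above whole intestine for each gene, the lowest Atoh1 arrays are CD24hi NICD and the lowest Foxa1 arrays are CD24lo doxorubicin.

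Over the 10 sorted groups the spread of the group means was widest for Foxa1 and narrowest for Foxa3. Foxa1 spanned 2.17 on the log2 scale between its highest group, CD24hi NICD, and its lowest, CD24lo doxorubicin. Creb3l4 spanned 1.57 between CD24hi irradiated and CD24lo NICD, and Atoh1 1.57 between CD24lo irradiated and CD24hi NICD. For Foxa2 (1.33), Gfi1 (1.33), Spdef (1.10) and Foxa3 (0.65) the highest group was CD24hi irradiated. The 2 arrays of a group differed by a median of 0.12 (Foxa1) to 0.49 (Foxa2). In order of level, most neighbouring groups overlapped. Atoh1 had a gap without overlap only below CD24hi untreated, where CD24hi NICD lay 0.76 lower. Foxa1 had gaps below CD24hi NICD (0.39), below CD24hi irradiated (0.18), below CD24lo irradiated (0.22) and below CD24hi doxorubicin (1.004). Creb3l4 had gaps below CD24hi irradiated (0.13), CD24hi untreated (0.26) and CD24hi doxorubicin (0.60), and Gfi1 below CD24hi irradiated (0.35), CD24hi untreated (0.24) and CD24lo doxorubicin (0.46). Spdef had 1 gap, below CD24hi irradiated (0.19), and Foxa2 and Foxa3 had none. Such gaps were not counted over all genes. With 2 arrays a group they are common, as the fractions of a condition lay apart in a given direction for 18.9% to 43.4% of all genes.

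CD24hi cells had more Foxa1, Creb3l4 and Foxa2 signal and less Atoh1 signal than CD24lo cells when the 5 conditions were averaged. Foxa1 was higher by 0.57 ± 0.09 (difference of log2(signal + 16) ± SE, 10 arrays per fraction), with adjusted p = 5.59e-05 in limma over all genes. Creb3l4 was higher by 0.45 ± 0.12, adjusted p = 0.0054, and Foxa2 by 0.44 ± 0.16, adjusted p = 0.0326. Atoh1 differed by -0.23 ± 0.09, adjusted p = 0.0449. Spdef (0.14), Gfi1 (-0.15) and Foxa3 (0.15) did not pass. The 4 of 7 called stand beside 46.6% of all genes tested (27.4% higher and 19.2% lower), so the count is near the background. Foxa1 and Creb3l4 passed without any 1 of the 20 arrays, Foxa2 lost its call without any 1 of 11 arrays (adjusted p up to 0.0806) and Atoh1 without any 1 of 14 (up to 0.11). Atoh1 was at -0.20, adjusted p = 0.0846, without CD24hi NICD replicate 2, and the other 3 calls held. When the NICD condition was left out, an average chosen after seeing the data, Atoh1 differed by -0.02, adjusted p = 0.886, and Foxa3 was higher by 0.25, adjusted p = 0.0337.

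Other genes of the same fate decision also differed between the fractions. Of 16 other secretory lineage factors tested, 12 were higher and 1 lower in CD24hi cells, with a median of 1.23 against 0.15 for the 7 genes and 0.07 for all genes. Nkx2-2, an enteroendocrine factor, was higher by 2.80 ± 0.18, Pou2f3, a tuft cell factor, by 2.33 ± 0.21, Bhlha15 by 2.24 ± 0.12 and Isl1, an enteroendocrine factor, by 2.23 ± 0.21. Pou2f3 lay at or below the array median in every CD24lo group, and Nkx2-2 and Isl1 did so in several CD24lo groups. The sizes of these differences therefore rest on low CD24lo signals. Gfi1b, also among the 16, lay at or below the array median in every CD24lo group too. Only CD24hi arrays could bring Pou2f3 and Gfi1b into the tests, so for them the count is no independent result. Of 12 absorptive lineage factors, 8 were lower and 1 higher (median -0.40), with Maf at -2.62 ± 0.29 and Isx, an intestinal homeobox factor, at -1.57 ± 0.10. The 1 higher was Hes1, which is counted among the Notch pathway genes as well. Of 17 goblet cell products 7 were lower and 1 higher, with Capn9 at -1.79 ± 0.09. Of 14 Notch pathway genes 4 were higher and 2 lower, with Heyl, a Notch target, at 2.81 ± 0.19, Hes1 at 0.43 ± 0.15 (adjusted p = 0.0261) and Numb, a Notch antagonist, at -0.50 ± 0.10. Heyl lay at or below the array median in untreated, Lgr5-ablated, irradiated and doxorubicin CD24lo cells. CD24 itself set the fractions, and Cd24a was higher by 1.01 ± 0.08. The secretory factors had 11 higher and 1 lower, the goblet products 9 lower and the Notch genes 3 higher without CD24hi NICD replicate 2. Markers of other cell types also separated the fractions, with 10 of 11 Paneth markers (Cd24a is one), 7 of 7 tuft markers (Pou2f3 is one) and 10 of 10 stem cell markers higher and 9 of 9 enterocyte markers lower in CD24hi cells. The tuft markers Dclk1, Pou2f3, Sh2d6 and Rgs13 lay at or below the array median on every CD24lo array. Only CD24hi arrays could bring them into the tests, so the tuft count is no independent result. The part of these cell types in the differences of the 7 genes was not tested.

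Within single conditions, members of the 7 were called between the fractions with NICD and after doxorubicin, and in the other 3 conditions none was. With NICD, Atoh1 read 3965 and 3119 in CD24hi cells, against 7352 and 7605 in CD24lo cells. The 2 CD24hi arrays were thus well under both CD24lo arrays, as in 26.8% of all genes, and the difference was -1.08 ± 0.20, adjusted p = 0.00185, past the threshold without any 1 of the 4 arrays. Gfi1 read 459.9 and 323 in CD24hi NICD against 831 and 649.7 in CD24lo NICD, a difference of -0.90 ± 0.23, adjusted p = 0.0121. Foxa1 went the other way, with 2799 and 3280.5 in CD24hi NICD against 1976 and 1895 in CD24lo NICD (0.64 ± 0.20, adjusted p = 0.0269). Creb3l4 also was higher in CD24hi NICD, at 2439 and 2945 against 2037 and 1055 (0.86 ± 0.27, adjusted p = 0.0287). So 4 of 7 were called, 2 in each direction, beside 24.2% of all genes (13.6% higher, 10.5% lower). Without CD24hi NICD replicate 2 the call of Atoh1 held, while Gfi1 (adjusted p = 0.16), Foxa1 (0.2) and Creb3l4 (0.209) lost theirs. Without CD24lo NICD replicate 2 the calls of Creb3l4 (difference 0.39, adjusted p = 0.39) and Foxa1 (0.149) were lost, and without CD24lo NICD replicate 1 those of Gfi1 (0.0833) and Foxa1 (0.0663).

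After doxorubicin, Foxa1 read 1392 and 1297 in CD24hi cells and 691 and 635 in CD24lo cells. No array of the fractions overlapped (all higher in CD24hi, as in 43.4% of all genes), and the difference of 1.004 ± 0.20, adjusted p = 0.00144, passed without any 1 of the 4 arrays. It was the 1 of 7 called, beside 28.3% of all genes (17.4% higher). Creb3l4 stood 0.60 higher there without passing (adjusted p = 0.103). In untreated cells 0 of 7 were called by limma, beside 14.4% of all genes, with 1 (Foxa2) at an unadjusted p below 0.05. Atoh1 read 5559 and 6387 in CD24hi untreated and 6247 and 6303 in CD24lo untreated cells, and its difference of -0.07 had a 95% interval from -0.51 to 0.36. Foxa2 was the most different of the 7 there, with 1316 and 714 against 607 and 450.4 (0.87 ± 0.35, adjusted p = 0.117), and its 2 CD24hi arrays lay far apart. After irradiation 0 of 7 were called beside 15.8% (1 at an unadjusted p below 0.05, Foxa1), and after Lgr5 ablation 0 of 7 beside 6.98% (0 at an unadjusted p below 0.05).

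**Figure D2:**
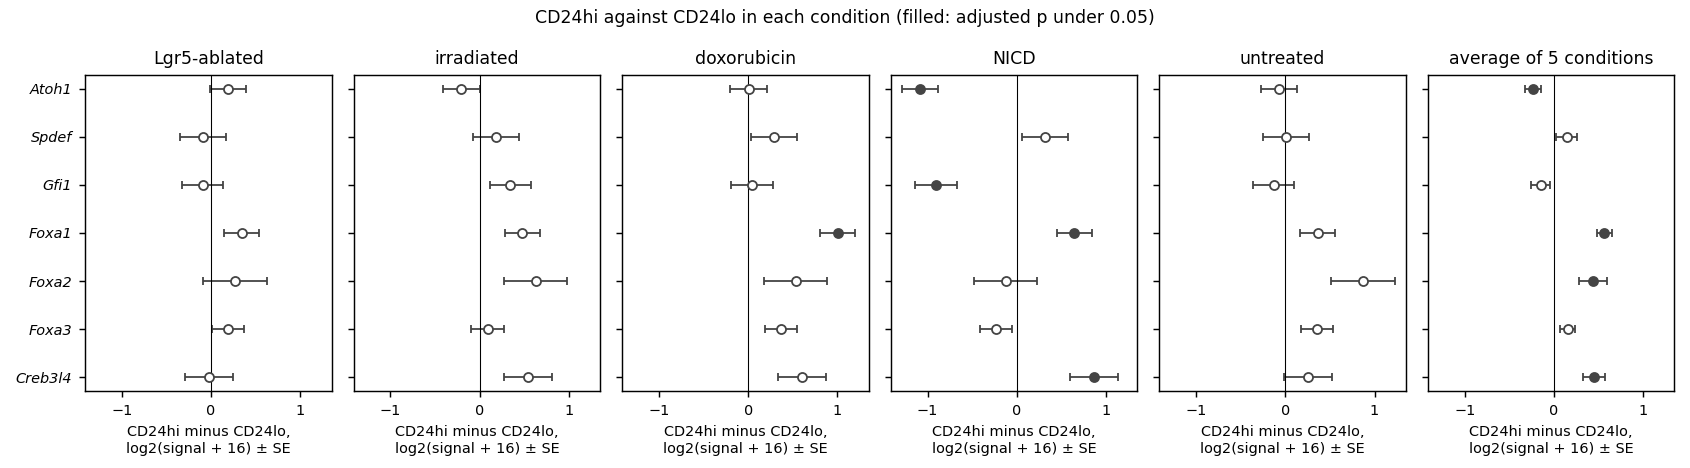
CD24hi minus CD24lo for the 7 genes in each condition and averaged over the 5 conditions, as difference of log2(signal + 16) ± SE from limma; filled points have adjusted p under 0.05. Atoh1 and Gfi1 lie left of 0 and Foxa1 and Creb3l4 right of 0 with NICD, and Foxa1 is at 1.004 after doxorubicin.

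The comparison of NICD with untreated cells bears on how the factors stand when a Notch domain is expressed. In CD24hi cells Atoh1 was lower and in CD24lo cells Creb3l4 was lower; the other genes did not pass in either fraction. Atoh1 read 3965 and 3119 in CD24hi NICD arrays, against 5559 and 6387 in CD24hi untreated arrays. Both NICD arrays lay below both untreated ones, as in 23.1% of all genes, and the difference was -0.76 ± 0.20, adjusted p = 0.0346. This was 1 of 7 called, beside 6.56% of all genes (1.86% lower). The call was lost without CD24hi NICD replicate 2, the array that stood apart (-0.59, adjusted p = 0.325), and without CD24hi untreated replicate 1 (0.0836) or replicate 2 (0.203). In CD24lo cells Atoh1 read 7352 and 7605 with NICD and 6247 and 6303 untreated, a difference of 0.25 ± 0.20, adjusted p = 0.397. The effect in CD24hi minus that in CD24lo was -1.01 ± 0.29, adjusted p = 0.0619, where 2.65% of all genes were called and 0 of 7 (3 at an unadjusted p below 0.05, Atoh1, Gfi1 and Foxa3). Without CD24hi NICD replicate 2 it was -0.84, adjusted p = 0.284. After quantile normalization this difference passed, at -1.14 with adjusted p = 0.0362. With the scaling as deposited, the fractions are therefore not shown to differ in the effect of NICD on Atoh1.

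Gfi1, which acts below ATOH1, read 459.9 and 323 in CD24hi NICD against 629 and 686 in CD24hi untreated cells. The arrays did not overlap, but -0.74 ± 0.23 did not pass (adjusted p = 0.0658). In CD24lo cells it read 831 and 649.7 with NICD and 689 and 754 untreated, with the untreated arrays inside the range of the NICD arrays. Foxa3 read 4027 and 3369 in CD24hi NICD against 4335 and 5131 untreated (-0.36 ± 0.18, adjusted p = 0.244), and in CD24lo cells 4331 and 4335 with NICD against 3778 and 3603 (0.23, adjusted p = 0.386). The Foxa3 arrays were apart in both fractions, in opposite directions; of all genes 23.1% were wholly lower in CD24hi and 32.9% wholly higher in CD24lo NICD arrays. For Foxa3 the difference between the effects was -0.59 ± 0.26, adjusted p = 0.161, or -0.46 with adjusted p = 0.478 without CD24hi NICD replicate 2. Foxa1 read 2799 and 3280.5 in CD24hi NICD against 2105 and 2448 untreated (0.41, adjusted p = 0.207), the only 1 of the 7 whose NICD arrays lay wholly above the untreated ones in CD24hi cells, as did 25.6% of all genes. Without CD24hi NICD replicate 2 the CD24hi differences from untreated were -0.50 for Gfi1, -0.23 for Foxa3 and 0.30 for Foxa1.

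Creb3l4 read 2037 and 1055 in CD24lo NICD arrays, against 2962 and 3805 in CD24lo untreated arrays. The difference was -1.19 ± 0.27, adjusted p = 0.0143, and was 1 of 7 called beside 14.4% of all genes (7.72% lower). The 2 NICD arrays lay far apart from each other, both below both untreated arrays, as in 29.6% of all genes. Without CD24lo NICD replicate 2 the value was -0.72 with adjusted p = 0.278 (0.0803 without CD24lo untreated replicate 2). In CD24hi cells Creb3l4 read 2439 and 2945 with NICD and 3913 and 4108 untreated, again without overlap, at -0.58 ± 0.27, adjusted p = 0.197. Spdef followed the same direction without passing, at -0.73 ± 0.26 in CD24lo (adjusted p = 0.0639) and -0.42 ± 0.26 in CD24hi cells (adjusted p = 0.33). In CD24hi cells the differences were -0.71 for Creb3l4 and -0.70 for Spdef without CD24hi NICD replicate 2. Averaged over the 2 fractions, a comparison added after seeing the data, Creb3l4 was lower with NICD, at -0.88 with adjusted p = 0.00718, as was Spdef, at -0.58 with adjusted p = 0.0438, which was 2 of 7 beside 14.6% of all genes (5.88% lower). Creb3l4 kept that call without any 1 of the 8 arrays and Spdef lost it without any 1 of 4 (CD24lo untreated replicate 2, CD24hi untreated replicate 2, CD24lo NICD replicate 2 or CD24hi NICD replicate 1, adjusted p up to 0.208). Without CD24hi NICD replicate 2 the values were -0.95 for Creb3l4 (adjusted p = 0.0131) and -0.72 for Spdef (adjusted p = 0.026).

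Secretory factors outside the 7 genes included several that were higher in CD24hi NICD cells. Of the 16 other secretory lineage factors, 8 were higher and 0 lower there, with a median of 1.47 against -0.42 for the 7 genes and 0.01 for all genes. Gfi1b, one of the 16, lay at or below the array median in every other sorted group. Only CD24hi NICD arrays could bring it into the tests, so for Gfi1b the count is no independent result. Neurod1 was higher by 3.11 ± 0.51, Pax6 by 2.91 ± 0.61, Insm1 by 2.66 ± 0.45 and Neurog3, the factor that starts the enteroendocrine fate, by 2.62 ± 0.50. In CD24lo NICD cells 2 were higher, Neurod1 by 2.29 ± 0.51 and Insm1 by 2.25 ± 0.45, and Hes6 was lower, at -0.94 ± 0.29. In CD24hi NICD cells 4 of the 16 were higher without replicate 2, with a median of 1.48 and 10 at an unadjusted p below 0.05. Notch pathway genes that passed were Heyl (2.87 ± 0.43) and the receptor gene Notch3 (1.63 ± 0.37) in CD24hi, and Heyl (2.25 ± 0.43), Notch3 (2.10 ± 0.37) and the Notch target Nrarp (1.83 ± 0.29) in CD24lo cells, out of 14 tested. In both CD24lo untreated arrays Heyl and Notch3 lay at or below the array median. In CD24hi cells 1 of the 14 passed without CD24hi NICD replicate 2. Hes1, the repressor of Atoh1, stood 0.87 ± 0.34 higher in CD24hi (adjusted p = 0.128) and 0.10 higher in CD24lo cells (adjusted p = 0.864). Notch1 differed by -0.63 (adjusted p = 0.218) and 0.19 (adjusted p = 0.679), and the files do not say whether its probe set lies within the expressed domain.

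Markers of other cell types moved with these results, and their part in them was not tested. Of 12 enteroendocrine markers 11 were higher in CD24hi NICD, with summed signals of 74706 to 124647 against 18197 to 19763 in CD24hi untreated arrays. All 7 tuft cell markers tested were higher, and the 8 on the array summed to 11952 to 12861 against 1339 to 2028. These counts were 6 of 12 and 6 of 7 without CD24hi NICD replicate 2. In CD24lo NICD cells 4 of 11 T cell markers tested were higher, and the 13 on the array summed to 5752 to 6987 against 583 to 1751, and 4 of 17 goblet cell products were lower. There 4 of 9 enterocyte markers were also lower, summing to 34178 to 35734 against 59965 to 71559, as were 3 of 12 absorptive lineage factors. The 6 stromal and endothelial markers on the array summed to 3981 to 4995 in CD24hi NICD against 470 to 741 in CD24hi untreated arrays. In CD24lo cells they summed to 1653 to 1663 with NICD against 609 to 700 untreated. In each NICD group 4 of these 6 lay at or below the array median. No marker was listed at 0 in any group, but several were dim. In both CD24lo untreated arrays 8 of the 13 T cell markers lay at or below the array median. In CD24lo NICD arrays 4 of them (Cd3e, Cd3g, Cd3d and Cd2) still did. Cd5 lay at or below the array median in every other sorted group. Only CD24lo NICD arrays could bring Cd5 into the tests, so for it the T cell count is no independent result.

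**Figure D3:**
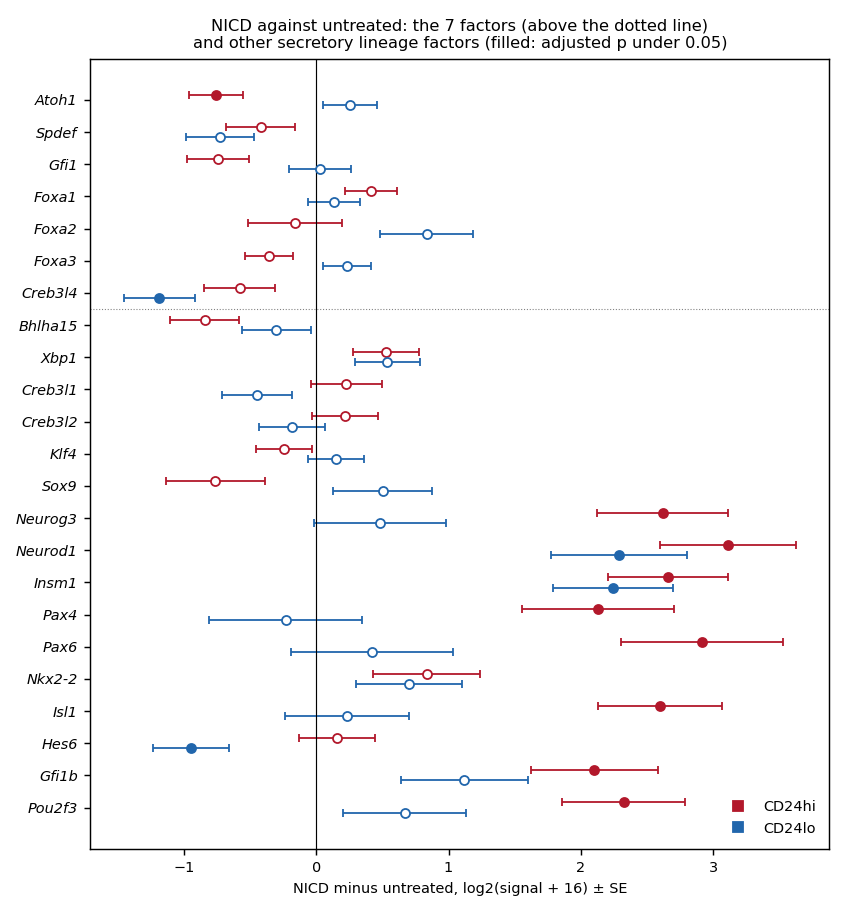
NICD minus untreated for the 7 genes (above the dotted line) and 16 other secretory lineage factors (below), as difference of log2(signal + 16) ± SE, with CD24hi in red and CD24lo in blue and filled points for adjusted p under 0.05. In CD24hi cells Atoh1 is at -0.76, while Neurod1 is at 3.11 and 8 of the 16 other factors are filled and right of 0. Only CD24hi NICD arrays could bring Gfi1b into the tests.

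Doxorubicin gave the lowest Foxa1 levels of the 10 sorted groups. In CD24lo cells Foxa1, Creb3l4 and Spdef were lower after doxorubicin, 3 of 7 beside 14.7% of all genes called (9.27% lower). Foxa1 read 691 and 635 after doxorubicin, against 1552 and 1996 in untreated CD24lo cells. Both treated arrays lay far under both untreated ones, and the difference was -1.39 ± 0.20, adjusted p = 0.000682, past the threshold without any 1 of the 4 arrays. Creb3l4 read 1789 and 1488 against 2962 and 3805 (-1.03 ± 0.27, adjusted p = 0.0177), and Spdef 1881 and 2051 against 2862 and 4567 (-0.88 ± 0.26, adjusted p = 0.0319). The treated arrays of Foxa1, Creb3l4, Spdef and Gfi1 all lay below the untreated ones, 4 of 7, as did those of 35.1% of all genes. Both calls were lost without CD24lo untreated replicate 2 (Creb3l4 adjusted p = 0.148, Spdef 0.301), doxorubicin replicate 1 (0.067 and 0.171) or doxorubicin replicate 2 (0.12 and 0.102).

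In CD24hi cells 0 of 7 were called by limma after doxorubicin, beside 1.2% of all genes, with 3 at an unadjusted p below 0.05. These were Foxa1 at -0.75 ± 0.20 (adjusted p = 0.08), Creb3l4 at -0.68 ± 0.27 (adjusted p = 0.307) and Spdef at -0.59 ± 0.26 (adjusted p = 0.366), the genes called in CD24lo cells. Foxa1 read 1392 and 1297 in CD24hi doxorubicin arrays against 2105 and 2448 in CD24hi untreated arrays. Creb3l4 read 2447 and 2532 against 3913 and 4108, and Spdef 2421 and 2382 against 3081 and 4284. For these 3 and Gfi1 the treated arrays all lay below the untreated ones, 4 of 7, as did those of 25.9% of all genes. The doxorubicin effect in CD24hi minus that in CD24lo was 0.64 ± 0.28 for Foxa1 (adjusted p = 0.426), where 0.0337% of all genes and 0 of 7 were called (1 at an unadjusted p below 0.05, Foxa1). Averaged over the 2 fractions, again an added comparison, Foxa1 was lower at -1.07, adjusted p = 0.000214, Creb3l4 at -0.86, adjusted p = 0.00719, and Spdef at -0.73, adjusted p = 0.0136, 3 of 7 beside 16.4% of all genes (9.32% lower). Foxa1 and Creb3l4 kept these calls without any 1 of the 8 arrays. Spdef lost its call without CD24lo untreated replicate 2 (adjusted p = 0.0696), CD24hi untreated replicate 2 (0.0727) or CD24lo doxorubicin replicate 1 (0.0513).

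Atoh1 and Foxa3 had no call after doxorubicin. Atoh1 read 7580.0 and 7204 in CD24hi doxorubicin arrays against 5559 and 6387 untreated, and 7432 and 7296 in CD24lo doxorubicin arrays against 6247 and 6303 untreated. Its arrays were all higher in both fractions, as in 25.4% and 26.2% of all genes, and the differences of 0.31 and 0.23 did not pass (adjusted p = 0.615 and 0.468). Averaged over the 2 fractions, Atoh1 differed by 0.27 in limma, adjusted p = 0.206. In the limma fit to the compared groups alone this average passed (adjusted p = 0.0476). Foxa3 differed by 0.07 in CD24hi and 0.05 in CD24lo cells, and the 95% interval in CD24hi cells ran from -0.31 to 0.46.

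Other gene groups in doxorubicin CD24lo cells differed in several directions. Bhlha15 was lower, at -1.19 ± 0.26 (adjusted p = 0.00829), and of 14 secretory endoplasmic reticulum genes Kdelr3 (-0.93 ± 0.26) and Pdia4 (-0.79 ± 0.22) were lower. Of 17 goblet cell products Sytl2, a secretory granule protein, was higher by 0.57 ± 0.17 and none was lower. Paneth cell markers were lower in 7 of 11, with Pla2g2a at -2.70 ± 0.42 and Mmp7, a protease that activates defensins, at -2.39 ± 0.25, and their summed signal was 53228 to 58942 after doxorubicin against 81292 to 93242 untreated. T cell markers were higher in 6 of 11, with Gzma at 3.48 ± 0.68, and summed to 4389 to 4765 against 583 to 1751. Gzma lay at or below the array median in both CD24lo untreated arrays. Cd3e and Cd3g lay at or below it in every sorted group other than CD24lo doxorubicin. Only CD24lo doxorubicin arrays could bring them into the tests, so for them the T cell count is no independent result. Enterocyte markers were higher in 3 of 9, at 120899 to 138847 against 59965 to 71559. Proliferation genes were lower in 4 of 4 and enteroendocrine markers in 2 of 12. Stem cell markers were lower in 6 of 10, and summed to 6505 to 6790.3 against 19397 to 21536. The part of these cell types in the result for Foxa1, Creb3l4 and Spdef was not tested.

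**Figure D4:**
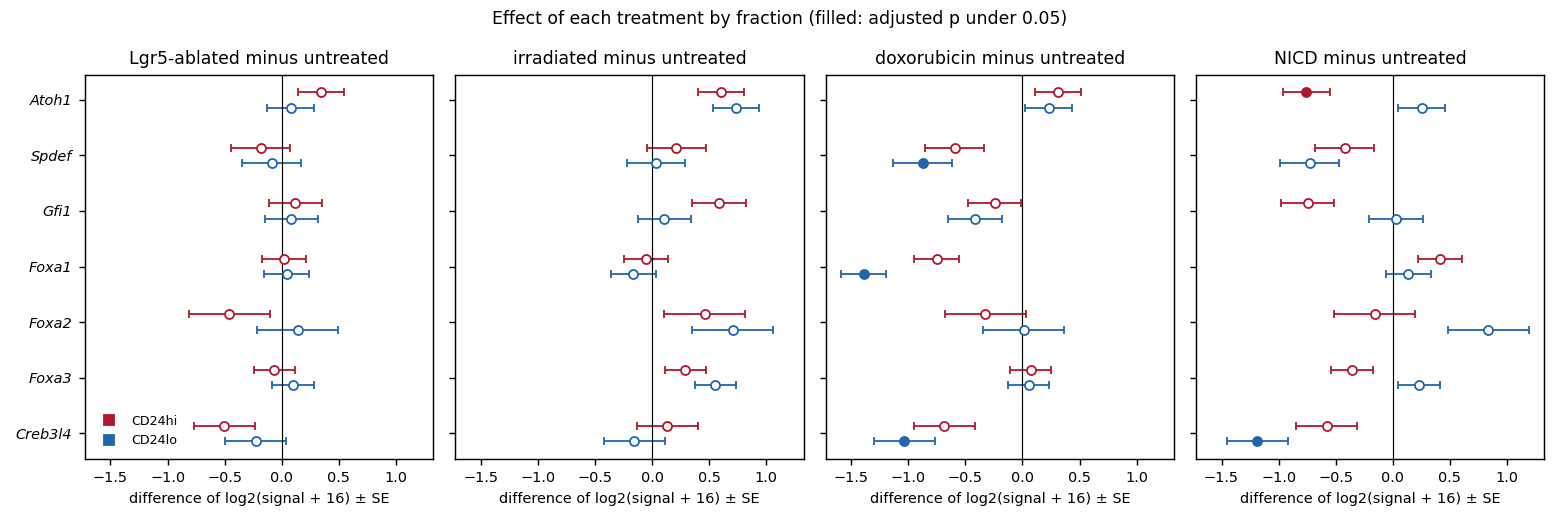
Each treatment minus untreated for the 7 genes, as difference of log2(signal + 16) ± SE from limma, with CD24hi in red and CD24lo in blue; filled points have adjusted p under 0.05. Foxa1, Creb3l4 and Spdef lie left of 0 in both fractions after doxorubicin, and Atoh1 lies right of 0 in both fractions after irradiation and left of 0 in CD24hi NICD cells.

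The 2 irradiated groups had the highest mean Atoh1 of the 10 sorted groups. Atoh1 read 10025 and 8181 in irradiated CD24hi cells against 5559 and 6387 untreated, and 12363 and 8821 in irradiated CD24lo cells against 6247 and 6303 untreated. Every irradiated array was above every untreated array of its fraction, as in 23.2% of all genes in CD24hi and 24.8% in CD24lo cells. Within a fraction the difference did not pass, at 0.60 ± 0.20 (adjusted p = 0.124) in CD24hi and 0.73 ± 0.20 (adjusted p = 0.0526) in CD24lo cells. In limma 0 of 7 were called in CD24hi, beside 4.44% of all genes (2 at an unadjusted p below 0.05, Atoh1 and Gfi1), and 0 of 7 in CD24lo, beside 4.02% (2, Atoh1 and Foxa3). Averaged over the 2 fractions, added after seeing the data, Atoh1 was higher by 0.67 ± 0.14, adjusted p = 0.0055, and Foxa3 by 0.42 ± 0.13, adjusted p = 0.0388, 2 of 7 beside 13.6% of all genes (5.09% higher). Atoh1 kept this call without any 1 of the 8 arrays (adjusted p up to 0.0379) and Foxa3 lost it without any 1 of 6 (up to 0.174). The irradiation effects did not differ between fractions past the threshold for any of the 7 (0 of 7 called beside 0.00844% of all genes, 0 at an unadjusted p below 0.05).

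Foxa3 read 5919 and 5636 in irradiated CD24hi cells against 4335 and 5131 untreated, and 6243 and 4709.7 in irradiated CD24lo cells against 3778 and 3603 untreated. Gfi1 was above the untreated arrays in CD24hi cells, at 1191 and 827 against 629 and 686, where 0.58 ± 0.23 did not pass (adjusted p = 0.212), and read 752 and 805 against 689 and 754 in CD24lo cells. Foxa1 differed by -0.05 in CD24hi and -0.17 in CD24lo cells, and Creb3l4 by 0.13 and -0.16, none past the threshold. Foxa2 read 1394 and 1290.3 in irradiated CD24hi cells against 1316 and 714 untreated, and 1050.4 and 708 in irradiated CD24lo cells against 607 and 450.4 untreated. In CD24lo cells the Foxa2 arrays did not overlap, but 0.70 ± 0.35 did not pass (adjusted p = 0.271). Goblet cell products were higher in 7 of 17 in irradiated CD24hi cells, with Clca1 at 1.61 ± 0.18 and Bcas1 at 1.48 ± 0.20, while in CD24lo cells only Sytl2 passed, at 1.005 ± 0.17. In irradiated CD24hi cells Notch2 (-1.95 ± 0.31), Notch1 (-1.50 ± 0.30) and Nrarp (-1.22 ± 0.29) were lower, 3 of 14 Notch genes, while Hes1 differed by 0.06 (adjusted p = 0.96). Proliferation genes were lower in 4 of 4 in both fractions, and stem cell markers in 4 of 10 in CD24hi and 5 of 10 in CD24lo cells.

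Lgr5 ablation left each of the 7 genes short of the threshold in both fractions. In limma 0 of 7 were called in CD24hi cells, beside 0.852% of all genes, and 0 of 7 in CD24lo cells, beside 0.236%, with 0 at an unadjusted p below 0.05 in either. Atoh1 read 8182 and 6981 in ablated CD24hi cells against 5559 and 6387 untreated, a difference of 0.34 with a 95% interval from -0.09 to 0.77. In CD24lo cells it read 8219 and 5328 against 6247 and 6303, with the untreated arrays inside the range of the ablated ones. Creb3l4 read 2904 and 2739 in ablated CD24hi cells against 3913 and 4108 (-0.51, 95% interval -1.07 to 0.06). Foxa1 differed by 0.02 in CD24hi and 0.04 in CD24lo cells, and its 95% intervals reached from -0.39 to 0.43 and from -0.37 to 0.46. Averaged over the fractions 0 of 7 were called beside 1.59% (0 at an unadjusted p below 0.05), and the ablation effects did not differ between fractions past the threshold (0 of 7 beside 0.0169%, 0 at an unadjusted p below 0.05).

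Genes whose level followed each factor most closely over the 20 sorted arrays were found by Pearson correlation of log2(signal + 16). The arrays share fraction and condition, so these are descriptions of the arrays. The closest to Foxa1 were Mpzl1 (r = 0.941), Tmem63a (0.914) and Mthfd1l (0.913), and to Creb3l4 Cdk5rap3 (0.918), Pelo (0.913) and Tor2a (0.904). Spdef was followed by Ttc39a (0.916), Hgfac (0.914) and Arfgap1 (0.899). Atoh1 was followed by Sytl2 (0.869), a goblet cell product, Sh3pxd2a (0.853) and Sel1l3 (0.843), and Gfi1 by Dpagt1 (0.889), Galnt3 (0.864) and Sel1l3 (0.834). Foxa2 was followed by Erlec1 (0.885), Cfap36 (0.880) and Fam174a (0.872), and Foxa3 by Cep170b (0.859), Slc36a4 (0.856) and Plcb1 (0.851). Sel1l3 was the only gene among the 3 closest of more than 1 of the 7.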

How the data were processed

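RNA of 21 samples was hybridised to 1 array each. The deposited files hold signal intensity per probe set on a linear scale. The authors used MAS5, according to the submitters' processing notes, with no version given, and the trimmed mean of every array was 500. No detection calls were used, and the fold changes are on the log2(signal + 16) scale. Of 45101 probe sets, those with a single gene symbol (34958) were used, and those with several (932) or none (9211) were left out. A probe set was kept if 2 or more of the 20 sorted arrays had it over their own median signal (22531 were). The brightest of these stood for its gene, giving 11854 genes. Groups followed the labels. log2(signal + 16) was compared in limma 3.58.1 (R 4.3.3) with 1 mean per group, 10 residual degrees of freedom, a variance trend, two-sided tests and Benjamini-Hochberg adjustment over all genes at 0.05, for 22 comparisons. Whole intestine entered no test. The procedure was tested on simulated data.

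The 7 factors, the gene lists and the tests were chosen with earlier results of these data known. Named are the 7 factors, Bhlha15, Cd24a, Hes1 and Notch1, at most 4 called genes of each list in order of size, the 3 closest correlates of each factor, and Lgr5 as the target of the ablation. Alternatives were pseudocounts of 1 and 64, quantile normalization, 75th percentile centring, no filter or a stricter one, averaged probe sets, all kept probe sets, no trend, robust moderation, a fit to the compared groups, the replicate number as a block, and each array left out (a lone array then takes the spread of the other groups). Added after seeing the data were averages over the 2 fractions, the fraction average without NICD, and fits without CD24hi NICD replicate 2. Deviations of same-numbered arrays correlated at -0.41 to 0.385 over 45 pairs of groups, 11 of them over 0.1, and numbers were not used as pairs. Most of these pairs of groups crossed conditions, so the range cannot show whether the fractions of a condition were paired. Arrays of a group correlated across genes at 0.942 or more, and 0 pairs of arrays were identical. Promoters came from RefSeq.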

Additional observations from a re-analysis of the deposited data

Results flagged for a closer look

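The effects of NICD on Atoh1 and on Foxa3 are singled out because both arrays of 1 fraction moved against both arrays of the other. Of all genes, 23.1% were wholly lower with NICD in CD24hi and 32.9% wholly higher in CD24lo cells. The share of all genes that did both was not counted, so the pattern is not shown to be unusual. Atoh1 was lower with NICD in CD24hi cells, at 3965 and 3119 against 5559 and 6387 untreated, while in CD24lo cells its NICD arrays (7352 and 7605) lay above the untreated ones (6247 and 6303). The effect in CD24hi minus that in CD24lo was -1.01 ± 0.29, adjusted p = 0.0619 in limma over all genes, short of the threshold, with adjusted p of 0.0145 to 0.284 when single arrays were left out. Without CD24hi NICD replicate 2 it was -0.84, adjusted p = 0.284. Foxa3 had the same pattern with a smaller difference of -0.59 ± 0.26, adjusted p = 0.161, and -0.46 with adjusted p = 0.478 without that array.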

How the results depend on the processing

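Of 1967 named values under alternatives other than leaving out an array, 1916 kept sign and side of the threshold, 21 lost a call, 18 gained one, 12 uncalled values changed sign and 0 called values did. Each count below is of the 7 factors called. In irradiated CD24lo cells it was 1 (Atoh1), against 0, under quantile normalization, the stricter filter, averaged probe sets, robust moderation, the replicate block (adjusted p = 0.0378) and without CD24hi NICD replicate 2. With NICD in CD24hi cells it was 0, against 1, without the trend and in the fit to the compared groups. With NICD in CD24lo cells it was 2, against 1, without CD24hi NICD replicate 2. The difference between fractions in the NICD effect gave 1, against 0, after quantile normalization. For NICD averaged over fractions it was 1, against 2, after quantile normalization, with no filter, the stricter filter, no trend, the replicate block and the compared groups alone, where Spdef lost its call. For irradiation averaged over fractions it was 1, against 2, with no filter or no trend, where Foxa3 lost it. The fit to the compared groups called 1 between fractions after irradiation (against 0), 5 after doxorubicin (against 1), 1 with NICD (against 4), and 2 for doxorubicin in CD24hi cells (against 0). That fit also gave Atoh1 a call for doxorubicin averaged over fractions (adjusted p = 0.0476). The replicate block changed no other count of the 7 factors by over 1.5 times. Quantile normalization also ended the calls of Atoh1 (adjusted p = 0.127) and Foxa2 (0.053) in the fraction average and of Spdef after doxorubicin in CD24lo cells (0.0529), and gave Foxa3 one in the fraction average (0.03). Atoh1 also lost its call in the fraction average with no filter (0.0699) and no trend (0.0729), Spdef its doxorubicin call in CD24lo cells with no trend (0.0534), and Foxa2 its call with 75th percentile centring (0.0588).

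With single arrays left out, the counts ran from 0 to 1 between fractions after Lgr5 ablation, 1 to 4 with NICD and 2 to 4 for the average. They ran from 0 to 2 for NICD in CD24hi, in CD24lo and for the difference between fractions, 0 to 1 for irradiation in CD24lo, 1 to 3 for doxorubicin in CD24lo, 1 to 2 for irradiation averaged, 2 to 3 for doxorubicin averaged and 1 to 2 for NICD averaged. Calls over all genes also moved with 1 array left out. For NICD in CD24lo cells they ran from 4 to 1741 against 1709, for NICD in CD24hi cells from 206 to 2238 against 778, for doxorubicin in CD24lo cells from 394 to 1440.0 against 1747, and for irradiation from 163 to 530.0 against 526 in CD24hi and from 112 to 322 against 477 in CD24lo cells. Without CD24hi NICD replicate 2 they were 646 (2865 as reported) between fractions with NICD and 5 (314) for the difference between fractions in the NICD effect, which had 0 to 2622 over the arrays left out, 56 with no filter, 42 without the trend and 199 with the replicate block. In the fit to the compared groups alone they were 44 (827) between fractions after Lgr5 ablation, 5588 (3351) after doxorubicin and 1697 (2865) with NICD. In CD24hi cells they were then 33 (101) for Lgr5 ablation, 406 (142) for doxorubicin and 456 (778) for NICD. In CD24lo cells they were 221 (477) for irradiation, 861 (1709) for NICD and, in limma, 0 (28) for Lgr5 ablation, with 485 at an unadjusted p below 0.05. For differences between fractions they were 64 (4) for doxorubicin and 74 (314) for NICD, and for averages 73 (189) for Lgr5 ablation and 1006 (1729) for NICD. Fitting all kept probe sets tested more features and gave up to 9753 calls (5529) for the fraction average. Differences between fractions in the effects of Lgr5 ablation, irradiation and doxorubicin had 0 to 12 calls in the other settings, and with 1 array left out 1 to 26 (against 2), 0 to 2 (against 1) and 0 to 8 (against 4). Still with 1 left out, calls between fractions were 868 to 1285 (1704) untreated, 188 to 1474 (827) after Lgr5 ablation, 768 to 1338 (1868) after irradiation, 1726 to 2022 (3351) after doxorubicin and 646 to 3871 (2865) with NICD. Against untreated they were 36 to 186 (101) and 12 to 46 (28) for Lgr5 ablation in CD24hi and CD24lo cells and 26 to 82 (142) for doxorubicin in CD24hi cells. Averaged over fractions they were 119 to 246 (189) for Lgr5 ablation, 788 to 1535 (1610.0) for irradiation, 854 to 1828 (1939) for doxorubicin and 489 to 1933 (1729) for NICD. Having 2 arrays a group limits them all.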
